A study of Mus musculus with 9 samples.

Results

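Ung, Apex1, Apex2, Msh6, Exo1, Polh, Trp53bp1 and Rif1 encode enzymes and adaptor proteins that work on immunoglobulin (Ig) genes during class switching and somatic hypermutation, and their transcripts were followed from naive B cells to activated B cells and plasma cells (PCs). These 8 genes were taken by name from a table of 29995 genes, all 8 were found in it, and all 8 passed the filter on low values. The cells came from spleens of B6.Blimp1+/GFP mice, in which green fluorescent protein (GFP) marks transcription of the Blimp1 gene Prdm1 and which therefore carry 1 reporter allele. Every mouse was 12 weeks old and had received 50 µg of NP-LPS (lipopolysaccharide carrying the hapten nitrophenyl) into the peritoneum 4 days before the spleen was taken. The sorted populations were all depleted of cells with CD4, CD8a, Ter-119 or F4-80. Naive B cells were B220+ with high IgD and no NP binding, so they came from immunized animals as well. NP-specific B cells bound NP, carried B220 and had neither IgD, GFP nor CD138. PCs bound NP, lacked IgD and carried GFP and CD138. There were 3 libraries in each of the 3 groups.

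Class switching and hypermutation both start from uracil that arises in place of cytosine in Ig genes. Ung cuts the uracil out and leaves an abasic site, which the endonucleases Apex1 and Apex2 can nick. The U:G mismatch can instead be bound by Msh6, after which the exonuclease Exo1 removes a patch of DNA and the error-prone polymerase Polh refills it with mutations at A and T bases. Breaks formed in switch regions are held for joining by 53BP1, the product of Trp53bp1, together with Rif1, which keep the ends from being resected. Most of these proteins also serve general DNA repair and replication in dividing cells.

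Values are TPM, a transcript abundance corrected for transcript length and scaled to a fixed sum, from the table without Ig genes, in which libraries held 20189900 to 38602300 estimated reads. Counts of the members below rest on between 70.8 (Ung in PCs) and 5628 (Msh6 in NP-specific B cells) estimated reads per library. The sort was visible in its markers. The summed TPM of 6 B cell markers was 8281 to 8668 over the naive libraries, 6382 to 6958 over the NP-specific B cell ones and 1680 to 1825 over those of PCs. That of 5 PC markers, in the same order, was 142 to 167, 175 to 194 and 4811 to 5939. Xbp1 made up most of this sum in each group (means of 119, 156 and 4174). From naive to NP-specific B cells the means of Irf4 (25.1 to 11.1) and Sdc1 (7.02 to 0.943) fell. Those of Prdm1 (2.50 to 4.76) and Tnfrsf17 (0.256 to 10.4) rose. The sum of 6 T cell markers was 56.1 to 64.1, 24.3 to 58.4 and 4.53 to 7.20 in the same order. Lck made up most of it in naive and NP-specific B cells but not in PCs (means of 53.8, 37.1 and 0.564). Cd3e, Cd3g, Cd4, Cd8a and Cd3d had means between 0.0819 and 2.73. The sum of 5 macrophage markers was 5.67 to 6.93, 52.0 to 69.0 and 33.6 to 109. Of these Cd68 had means of 3.98, 57.6 and 32.5 and Lyz2 of 1.08, 2.14 and 20.9 (2.85, 11.6 and 48.2 in PC replicates 1 to 3), while Csf1r, C1qa and C1qb averaged at most 0.856 in naive and NP-specific B cells. The part of such cells in the changes below was not tested. One library stood apart, PC replicate 3. Its 6 liver genes summed to a TPM of 4613 (of 951969 in that library) against 26.5 and 22.8 in PC replicates 1 and 2. Macrophage Lyz2, C1qa (7.24) and C1qb (15.9) were also highest there. Results below that changed their call without that library are given beside their values. In bulk RNA, fewer cells with a transcript and less of it in each cell cannot be told apart.

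Promoter windows of 300 bases around the start site were found in RefSeq sequences (GRCm38.p6) for 5 of the 8 genes, and are shown for the members that rose in NP-specific B cells (Ung, Polh) and for those with the clearest fall from NP-specific B cells to PCs (Msh6, Apex1). Each runs 5′ to 3′ on the gene's strand. Ung lies at chr5:114130185-114130484 (plus strand), with capitals at GC boxes (GGGCGG on either strand). Polh lies at chr17:46202592-46202891 (minus strand), with capitals at the core CGCATGCG of the NRF1 motif. Msh6 lies at chr17:87974800-87975099 (plus strand), with capitals at an E2F motif (TTTCCCGC, TTTCGCGC, TTTGCCGC or TTTGGCGC). Apex1 lies at chr14:50924699-50924998 (plus strand), with capitals at the E-box CACGTG.
Ung: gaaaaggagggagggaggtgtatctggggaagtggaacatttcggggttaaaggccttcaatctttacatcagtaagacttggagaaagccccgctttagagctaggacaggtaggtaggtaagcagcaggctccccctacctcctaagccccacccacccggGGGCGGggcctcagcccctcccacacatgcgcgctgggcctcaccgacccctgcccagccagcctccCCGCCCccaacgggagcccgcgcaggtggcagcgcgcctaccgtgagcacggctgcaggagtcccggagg
Polh: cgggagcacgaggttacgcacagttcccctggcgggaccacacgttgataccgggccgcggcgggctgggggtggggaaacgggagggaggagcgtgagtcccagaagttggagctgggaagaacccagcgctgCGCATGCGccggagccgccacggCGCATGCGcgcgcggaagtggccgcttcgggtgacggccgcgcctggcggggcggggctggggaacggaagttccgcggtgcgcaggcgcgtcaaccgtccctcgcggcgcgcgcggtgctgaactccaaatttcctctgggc
Msh6: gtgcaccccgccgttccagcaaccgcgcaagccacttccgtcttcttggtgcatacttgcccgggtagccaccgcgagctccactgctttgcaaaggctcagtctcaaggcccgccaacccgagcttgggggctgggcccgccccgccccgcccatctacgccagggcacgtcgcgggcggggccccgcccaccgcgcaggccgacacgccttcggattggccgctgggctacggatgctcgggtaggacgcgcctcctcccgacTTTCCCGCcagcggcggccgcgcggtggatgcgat
Apex1: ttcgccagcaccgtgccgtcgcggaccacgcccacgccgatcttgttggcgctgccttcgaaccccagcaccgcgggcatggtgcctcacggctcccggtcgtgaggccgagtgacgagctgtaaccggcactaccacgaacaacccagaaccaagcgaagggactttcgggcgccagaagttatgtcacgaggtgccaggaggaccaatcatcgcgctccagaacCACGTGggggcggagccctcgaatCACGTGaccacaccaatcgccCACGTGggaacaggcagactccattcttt
Motifs were searched on both strands, were chosen after the sequences had been seen, and the printed matches did not overlap each other. Among 32851 promoter windows of the same length, the E2F letters were present in 2.26%, the NRF1 core in 1.87%, the E-box in 7.15% and the GC box in 35.7%. Of the 5 windows, Msh6 had the only E2F match, Polh had 2 NRF1 matches and Apex1 had 3 E-boxes. The GC box was in all 5, with 5 matches in Msh6, 2 in Ung and 1 in each of the rest. These matches describe the letters of the windows and say nothing of which factors bound there.

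Against naive B cells, NP-specific B cells had higher Ung, Exo1 and Polh by the rule used throughout, a limma adjusted p under 0.05 with a fold change over 2, and none of the 8 genes was lower. That is 37.5% of the members, where 8.13% of the 12892 genes tested were called higher and 18.5% were called in either direction. The median log2 change of the members was 0.76 and that of all genes tested was -0.16. In 6 of 8 members every NP-specific B cell library lay above every naive library, which held for 23.6% of all genes tested. With the lower threshold of 0.5 on the log2 scale that the study used for these groups, Msh6 and Apex1 were called higher too. That made 5 of 8 members against 15.7% of genes. By that threshold no member and 2698 of 12892 genes were lower (10.4% of genes by the 2-fold rule). The count of higher members was 3 to 5 with single libraries left out. With replicate number as a block it was 6, against 2102 of 12892 genes.

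From NP-specific B cells to PCs the direction turned. Ung, Msh6, Apex1 and Trp53bp1 fell and no member rose, so 50% of the members were called lower against 22.3% of all genes tested, with 32.2% of genes called in either direction and 9.93% higher. This count depends on the scaling and on single libraries: 1 member was called lower under median-of-ratios scaling (13.9% of genes) or quantile normalization (14.3%), 3 without PC replicate 3 or NP-specific B cell replicate 1, and 5 without PC replicate 1. By the lower threshold Polh was lower too, which made 5 of 8 members against 35.9% of genes. This count was 4 without PC replicate 3 or NP-specific B cell replicate 1. It was 6 without PC replicate 1 or with replicate number as a block (4283 and 4666 of 12892 genes). The members had a median log2 change of -0.95 beside -0.30 for all genes. Every PC library lay below every NP-specific B cell library in 5 of 8 members and in 40.9% of genes. Between PCs and naive B cells, Exo1 was higher and Apex1 and Trp53bp1 were lower, and this 37.5% of the members was close to the 37.8% of all genes called in that comparison (11.4% higher, 26.3% lower). Likewise 5 of 8 members did not overlap between these groups, against 69.7% of genes. The 3 comparisons share their libraries in pairs, so they are not independent of each other.

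**Figure D1:**
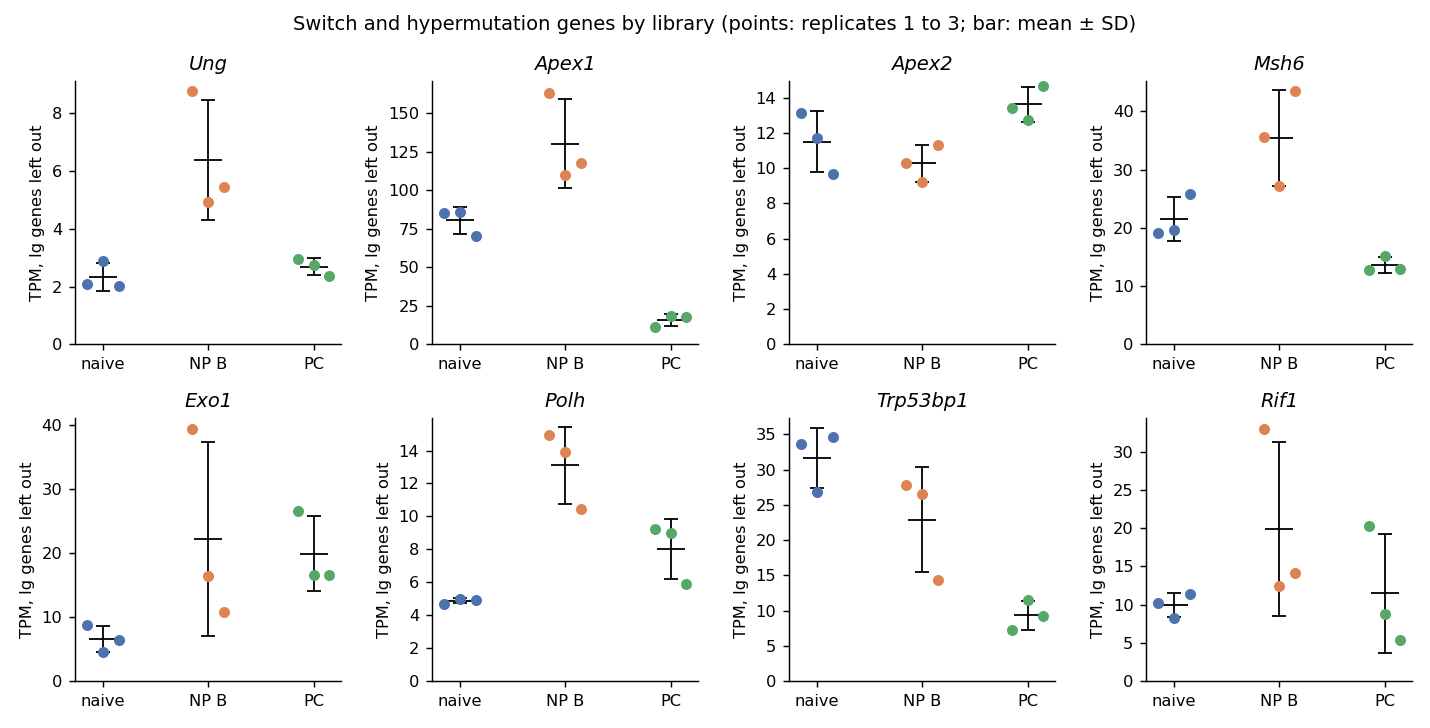
TPM of each gene (vertical axis, linear from 0, Ig genes left out) in naive B cells, NP-specific B cells (NP B) and plasma cells (PC), with 1 point per library and a bar at the mean ± SD of 3 libraries. Ung and Polh peak in NP-specific B cells without overlap with naive B cells, Apex1 drops to 11.2 to 18.1 in PCs, and Apex2 stays between 9.22 and 14.7 in all 9 libraries.

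Uracil excision was represented by Ung (chromosome 5, 114130386 to 114139323, GENCODE M21 on GRCm38), the main uracil glycosylase of B cells. It stood at 2.09, 2.90 and 2.00 TPM in naive replicates 1 to 3 and at 8.78, 4.93 and 5.44 in those of NP-specific B cells, while the PC replicates had 2.96, 2.74 and 2.36. All NP-specific B cell libraries lay above both other groups, whose ranges overlapped. Ung rose 2.37-fold from naive to NP-specific B cells (log2 change 1.25 ± 0.27 SE, limma adjusted p = 0.00445) and fell 2.10-fold from there to PCs (log2 change -1.07 ± 0.27, adjusted p = 0.00551). PCs and naive B cells differed by 0.17 on the log2 scale (95% interval -0.49 to 0.84, adjusted p = 0.633), so a difference of up to 0.84 is not excluded. Ung was the lowest of the 8 genes in every group. The fall to PCs is at the edge of the 2-fold rule. Leaving out PC replicate 3 gave -0.995 (adjusted p = 0.0207) and leaving out NP-specific B cell replicate 1 gave -0.84 (adjusted p = 0.0137), both under 2-fold.

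Both AP endonucleases were measured, and they parted in PCs. Apex1 (chromosome 14, 50924968 to 50927139), which does most abasic site cutting in ordinary cells, stood at 85.5, 85.7 and 70.3 TPM in the naive replicates and at 163, 110.0 and 118 in those of NP-specific B cells, while the PC replicates had 11.2, 18.1 and 17.4. The 3 groups did not overlap, with NP-specific B cells highest and PCs lowest. Apex1 was 1.59-fold higher in NP-specific than in naive B cells (log2 change 0.67 ± 0.17, limma adjusted p = 0.0103), which is under the 2-fold rule. It fell 8.17-fold from NP-specific B cells to PCs (log2 change -3.03 ± 0.22, adjusted p = 9.35e-07), and PCs had 5.15-fold less than naive B cells (log2 change -2.36 ± 0.23, adjusted p = 6.3e-06). No other member changed as much. Leaving out any single library kept the log2 fall to PCs between -3.15 and -2.82.

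The exons of Apex1 overlap in part with those of a neighbour. In the annotation 877 of its 1422 exonic bases (61.7%) also lie in exons of Pip4p1, the gene listed as Tmem55b in the deposited tables, on the opposite strand, through 1 of the 11 annotated Pip4p1 transcripts. The library kit does not mark strand, so reads from that stretch cannot be told apart where both transcripts are in the index. Which annotation the authors' kallisto index used is not given in the sources used here, so whether it held that Pip4p1 transcript is not known, and this limit also holds for the Apex2 share below. Tmem55b itself averaged 161 ± 17.7 TPM in the naive, 114 ± 5.22 in the NP-specific and 35.2 ± 14.7 in the PC group (SD, n = 3). It was thus lower in NP-specific than in naive B cells, where Apex1 was higher, and low in PCs, where Apex1 was low too. The part of Tmem55b reads in the Apex1 values was not tested.

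Apex2 (chromosome X, 150519519 to 150589868), the second AP endonuclease, which B cells of germinal centres are known to use, stood at 13.1, 11.7 and 9.65 TPM in naive replicates 1 to 3 and at 10.3, 9.22 and 11.3 in those of NP-specific B cells, while the PC replicates had 13.4, 12.8 and 14.7. Naive libraries overlapped with both other groups, whereas PCs lay just above NP-specific B cells. None of its differences passed the test. The log2 change was -0.16 (95% interval -0.54 to 0.22, limma adjusted p = 0.484) from naive to NP-specific B cells, 0.24 (-0.13 to 0.61, adjusted p = 0.239) from naive B cells to PCs and 0.40 (0.02 to 0.77, adjusted p = 0.0706) from NP-specific B cells to PCs. The PC values depend on the scaling. With median-of-ratios scaling PCs had more Apex2 than NP-specific B cells (0.78, adjusted p = 0.00358) and naive B cells (0.73, adjusted p = 0.00414), past the lower but not the 2-fold threshold, and with Ig genes kept they had less (-0.70 and -0.87, adjusted p = 0.00494 and 0.00114).

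As a result the balance between the endonucleases differed. Apex2 made up 13.3%, 12.0% and 12.1% of the summed TPM of both genes in naive libraries, 5.92%, 7.73% and 8.78% in NP-specific B cell libraries, and 54.5%, 41.3% and 45.8% in PC libraries. The means were 12.5% ± 0.719, 7.48% ± 1.44 and 47.2% ± 6.72 (SD, n = 3), and no 2 groups overlapped. The share within a library does not depend on how libraries are scaled. PCs were above NP-specific B cells by 39.7 and above naive B cells by 34.7 percentage points, while NP-specific B cells were below naive B cells by a difference of -5.00. Each comparison had a two-sided exact permutation p of 0.1, the smallest that 3 libraries against 3 allow. By estimated reads, which are not corrected for length, Apex2 held 25.1%, 15.9% and 67.5% in the same order.

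**Figure D2:**
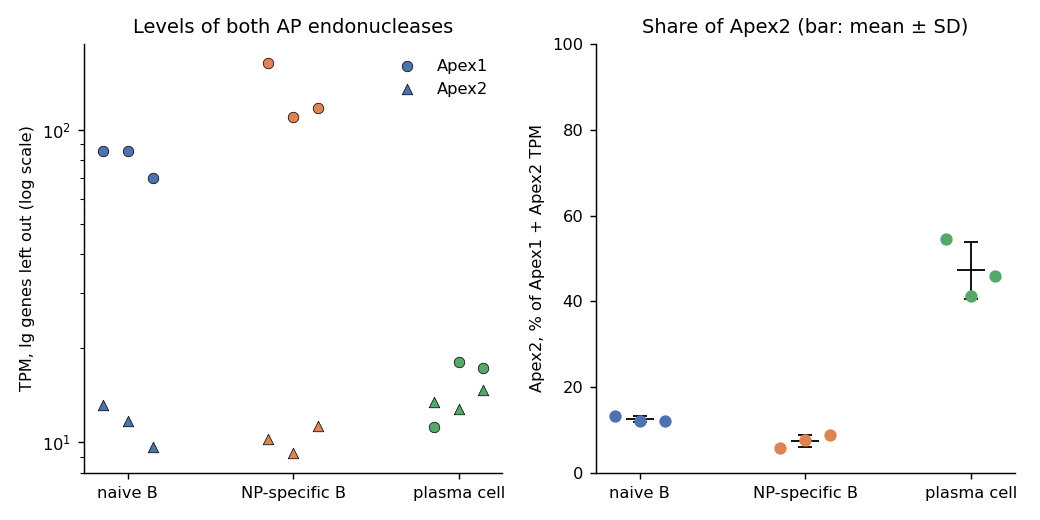
Left, TPM of Apex1 (circles) and Apex2 (triangles) in each library on a log axis, by group. Right, Apex2 as a percentage of Apex1 plus Apex2 TPM per library, with the mean ± SD of 3 libraries, at 12.5%, 7.48% and 47.2% in naive B cells, NP-specific B cells and plasma cells.

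The mismatch branch held Msh6, Exo1 and Polh. Msh6 (chromosome 17, 87975062 to 87990892), which recognizes U:G mismatches, stood at 19.0, 19.7 and 25.9 TPM in the naive replicates and at 35.6, 27.1 and 43.5 in those of NP-specific B cells, while the PC replicates had 12.7, 15.2 and 13.0. No libraries of different groups overlapped. Msh6 was 1.61-fold higher in NP-specific than in naive B cells (log2 change 0.68 ± 0.19, limma adjusted p = 0.0150) and fell 2.50-fold from NP-specific B cells to PCs (log2 change -1.32 ± 0.21, adjusted p = 0.000261). PCs stood 1.56-fold below naive B cells (adjusted p = 0.0249), which passed the lower threshold but not the 2-fold rule. Leaving out PC replicate 3 gave an adjusted p of 0.0621. The lower-threshold call was also lost without PC replicate 1 or naive replicate 3, and with no filter on low values. Median-of-ratios scaling and quantile normalization lost it too.

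Exo1 (chromosome 1, 175880581 to 175913489), the exonuclease that widens the mismatch into a gap, stood at 8.68, 4.52 and 6.44 TPM in naive replicates 1 to 3 and at 39.4, 16.3 and 10.8 in those of NP-specific B cells, while the PC replicates had 26.6, 16.5 and 16.6. Naive libraries were below all others, and NP-specific B cells and PCs overlapped. Exo1 was 2.86-fold higher in NP-specific B cells (log2 change 1.52 ± 0.47, limma adjusted p = 0.0247) and 2.90-fold higher in PCs (1.53 ± 0.47, adjusted p = 0.0156) than in naive B cells. PCs and NP-specific B cells differed by 0.02 with a 95% interval of -0.85 to 0.89 (adjusted p = 0.973), which leaves room for differences of either sign. The higher level in NP-specific B cells missed the threshold without naive replicate 2 (1.29, adjusted p = 0.0866), without naive replicate 3 (1.53, adjusted p = 0.0699) and with no filter on low values (adjusted p = 0.0554). The higher level in PCs missed it when naive replicate 2 (1.31, adjusted p = 0.0595) or PC replicate 1 (1.31, adjusted p = 0.0505) was left out. Keeping Ig genes also removed this PC call of Exo1, since no member then passed the 2-fold rule upward against naive B cells.

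Polh (chromosome 17, 46171355 to 46202645) encodes DNA polymerase eta. It stood at 4.69, 4.96 and 4.94 TPM in the naive replicates and at 14.9, 13.9 and 10.4 in those of NP-specific B cells, while the PC replicates had 9.20, 8.97 and 5.91. The groups followed one another without overlap, with PCs in between. Polh rose 2.49-fold from naive to NP-specific B cells (log2 change 1.32 ± 0.23, limma adjusted p = 0.00118), and leaving out any single library gave 1.22 to 1.47. PCs stood 1.60-fold below NP-specific B cells (log2 change -0.68 ± 0.21, adjusted p = 0.0184) and 1.56-fold above naive B cells (0.64 ± 0.24, adjusted p = 0.0404), both under the 2-fold rule. Without PC replicate 3 these adjusted p-values were 0.0723 and 0.0105, so that the lower-threshold call of Polh against NP-specific B cells was lost. Against naive B cells its lower-threshold call held there. That call was lost when any single naive library, PC replicate 1 or PC replicate 2 was left out, and with no filter on low values.

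The end-protection pair comprised Trp53bp1 and Rif1. Trp53bp1 (chromosome 2, 121193281 to 121271407), which encodes the break-site adaptor 53BP1, stood at 33.6, 26.8 and 34.7 TPM in the naive replicates and at 27.8, 26.5 and 14.3 in those of NP-specific B cells, while the PC replicates had 7.24, 11.4 and 9.28. PCs were below all libraries of the other groups, and naive and NP-specific B cells overlapped. Trp53bp1 fell 2.32-fold from NP-specific B cells to PCs (log2 change -1.21 ± 0.28, limma adjusted p = 0.00397) and PCs had 3.32-fold less than naive B cells (-1.73 ± 0.27, adjusted p = 0.000266). NP-specific B cells differed from naive B cells by -0.52 (95% interval -1.04 to 0.00, adjusted p = 0.0996). Of its 14164 exonic bases 15% also lie in exons of Tubgcp4 on the opposite strand, whose mean TPM was 54.9, 49.2 and 30.8 in the 3 groups.

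Rif1 (chromosome 2, 52072832 to 52122383), which 53BP1 recruits to broken ends, stood at 10.2, 8.28 and 11.4 TPM in the naive replicates and at 33.0, 12.5 and 14.1 in those of NP-specific B cells, while the PC replicates had 20.2, 8.78 and 5.42. Replicate 1 was far above the rest in both NP-binding groups. All NP-specific B cell libraries were above the naive ones, yet the log2 change of 0.83 ± 0.45 did not pass (limma adjusted p = 0.156). PCs differed by 0.00 from naive B cells (95% interval -1.06 to 1.07, adjusted p = 0.994) and by -0.83 from NP-specific B cells (-1.81 to 0.16, adjusted p = 0.144). The last value became -1.32 with an adjusted p of 0.0297 when PC replicate 1 was left out. With replicate number as a block, Rif1 passed the lower threshold in both comparisons with NP-specific B cells.

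**Figure D3:**
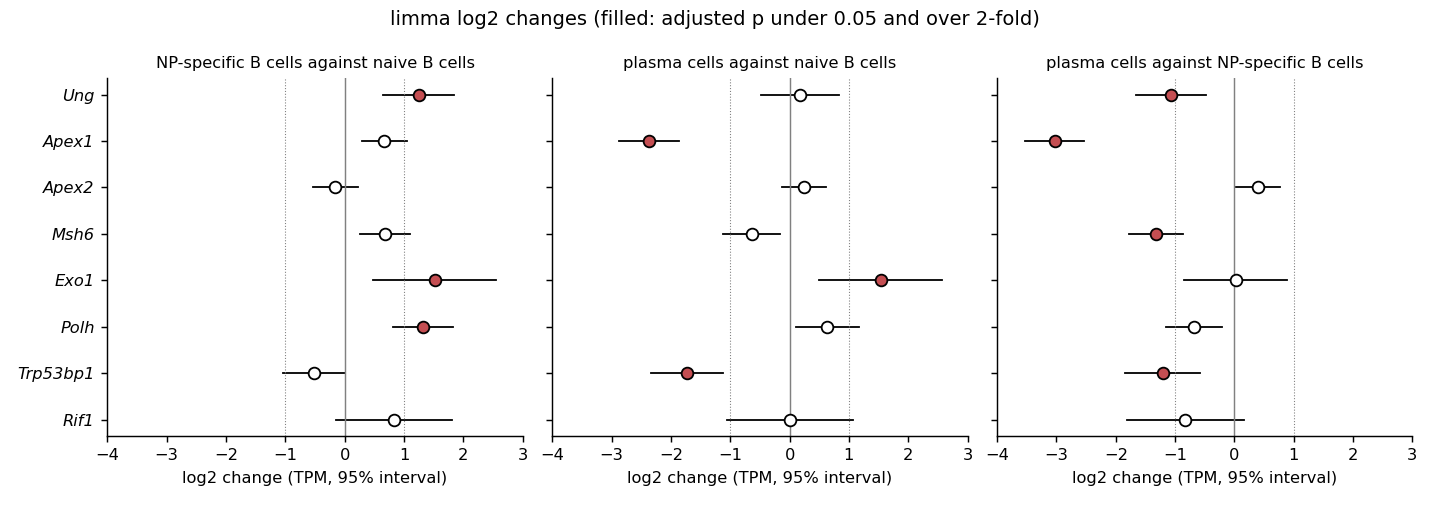
log2 change of each gene on the TPM scale with its 95% interval from limma, in 3 comparisons. Filled points pass the adjusted p and 2-fold rule, and dotted lines mark a 2-fold change. Apex1 has the largest falls, at -3.03 against NP-specific B cells and -2.36 against naive B cells.

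The order of the members within a group, compared by TPM, shifted between groups. In naive B cells Apex1 led with 80.5 ± 8.82 (SD, n = 3), before Trp53bp1 with 31.7 ± 4.24 and Msh6 with 21.5 ± 3.77, each apart from the next. Apex2 (11.5 ± 1.75), Rif1 (9.93 ± 1.55), Exo1 (6.55 ± 2.08) and Polh (4.87 ± 0.153) followed, where each overlapped with its neighbour, and Ung was last with 2.33 ± 0.492. In NP-specific B cells Apex1 again led, with 130.3 ± 28.9, and Ung was again last with 6.38 ± 2.09. Between them, from Msh6 (35.4 ± 8.22) over Trp53bp1, Exo1, Rif1 and Polh to Apex2 (10.3 ± 1.05), neighbours overlapped. In PCs Apex1 had lost its lead, and Exo1 (19.9 ± 5.82), Apex1 (15.6 ± 3.80), Msh6 (13.6 ± 1.33), Apex2 (13.6 ± 0.972), Rif1, Trp53bp1 and Polh formed one run of overlapping neighbours above Ung (2.69 ± 0.302).

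Because Ig transcripts fill much of a PC library, the scaling bears on every PC value. TPM in the table without Ig genes were 3.33 to 3.60 times those of the full table in PCs, against 1.07 for the naive and 1.11 to 1.13 for the NP-specific B cell libraries. With Ig genes kept, every one of the 8 members had a negative log2 change from NP-specific B cells to PCs, and 6 of them were called lower, where 59.7% of all genes were lower and the median gene was at -1.27. Ung, Apex2, Rif1 and Polh then had log2 changes of -0.60, -0.87, -1.04 and -0.39 against naive B cells, opposite in sign to those above. With median-of-ratios scaling the median gene moved from -0.47 to 0.02 in PCs against naive B cells, and from -0.30 to 0.08 in PCs against NP-specific B cells. Under it Ung (-0.69), Msh6 (-0.94) and Trp53bp1 (-0.84) were lower in PCs by less than 2-fold than in NP-specific B cells, with adjusted p of 0.0416, 0.00226 and 0.0261 in limma, and Apex1 (-2.66) was the 1 member still called. Quantile normalization left the same 1 member. That 12.5% of the members was close to the 13.9% and 14.3% of all genes called lower under these scalings. By the 2-fold rule a larger share of members than of genes was thus not seen there. By the lower threshold 4 of 8 members were lower under each, against 2898 and 3014 of 12892 genes. In each 1 member was higher by that threshold, against 3055 and 2835 genes. Polh in PCs against naive B cells then passed the 2-fold rule, at 1.13 with median-of-ratios scaling and 1.22 with quantile normalization. The fall of Apex1 in PCs was called under each of these scalings. Between NP-specific and naive B cells the same 3 calls stood under all of them.

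**Figure D4:**
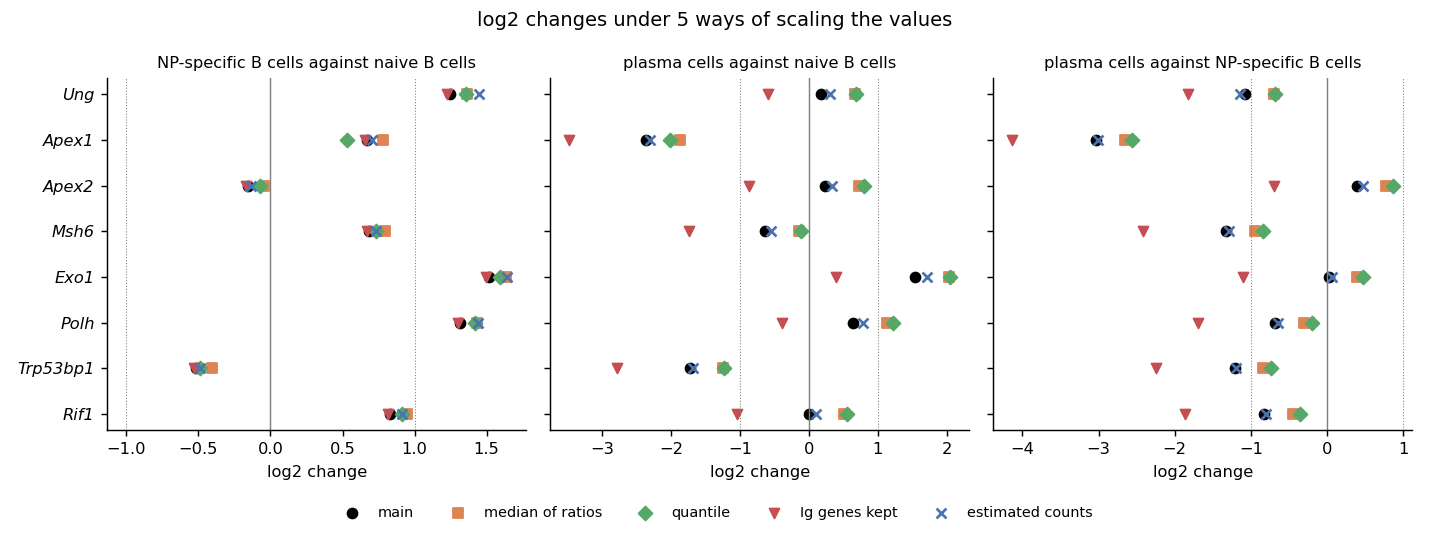
log2 change of each gene in 3 comparisons under 5 ways of scaling, with dotted lines at a 2-fold change. Markers nearly coincide for NP-specific against naive B cells, whereas with Ig genes kept the plasma cell values shift to the left, for Apex1 from -3.03 to -4.13 against NP-specific B cells.

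The wider pathway was read from a list of 55 further genes of uracil and base excision, mismatch repair, translesion synthesis, break signalling and end protection, end joining, and cofactors that target the process to Ig genes, all of which were tested. In NP-specific against naive B cells 13 of the 55 were higher and 2 lower, with a median log2 change of 0.24, where 8.13% of all genes tested were higher and 10.4% lower. Base excision held 6 of the higher genes among its 13, break signalling and end protection 4 of 12, and targeting cofactors 2 of 11. Mismatch repair held 1 of 5, which was the replication gene Pcna (98.6 to 240.2 TPM). None of the 7 translesion or 7 end-joining genes was called. Lig1, a DNA ligase that seals repair patches and replication fragments, rose from 15.4 ± 1.36 to 74.0 ± 17.3 (log2 change 2.20 ± 0.20, limma adjusted p = 1.58e-05). Hmces, which shields abasic sites in single-stranded DNA, rose from 45.2 ± 5.08 to 215 ± 77.3 (2.18 ± 0.25, adjusted p = 7.97e-05). H2afx, the histone variant marked around breaks, rose from 46.6 ± 2.94 to 190.1 ± 23.7 (2.00 ± 0.14, adjusted p = 3.7e-06). The genes that fell were Mdc1, a scaffold at broken DNA, by 1.48 and Smug1, another uracil glycosylase, by 1.21 on the log2 scale (adjusted p = 0.000514 and 0.00219). Smug1 thus went from a TPM of 7.75 ± 0.315 to 3.09 ± 0.233 where Ung went from 2.33 to 6.38.

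In PCs against NP-specific B cells 15 of the 55 genes were lower and 1 higher, with a median of -0.58 beside -0.30 for all genes, of which 22.3% were lower and 9.93% higher. Under median-of-ratios scaling and quantile normalization 7 of the 55 were lower, against 13.9% and 14.3% of all genes, and with Ig genes kept 48 were lower, against 59.7%. Break signalling and end protection held 5 lower genes, base excision and targeting cofactors 3 each, mismatch repair 2, and translesion synthesis and end joining 1 each. The 3 named falls in the list were those of Prkaca, a protein kinase A catalytic subunit (-2.26 ± 0.76, limma adjusted p = 0.0265), Neil1, a glycosylase for oxidized bases (-1.98 ± 0.27, adjusted p = 0.000101), and Rpa1, which coats single-stranded DNA (-1.65 ± 0.17, adjusted p = 1.3e-05). Their order was not stable, since Neil1 was below Prkaca with Ig genes kept (-3.12 and -2.86) and when PC replicate 2 (-2.12 and -2.05) or NP-specific B cell replicate 1 (-1.68 and -1.60) was left out. Prkaca was uneven, at 27.6, 3.04 and 13.5 TPM in NP-specific B cell replicates 1 to 3 and 1.24 to 2.58 in PC replicates. Its log2 change was -1.60 when NP-specific B cell replicate 1 was left out and -3.09 when replicate 2 was, and its call was lost without NP-specific B cell replicate 3 or any 1 of the PC replicates (adjusted p of 0.0566 to 0.0792) and also under median-of-ratios scaling (-1.89, adjusted p = 0.0515), with estimated counts, with no filter and with only the libraries compared. Lig3, a ligase that works with Xrcc1, was the gene that rose, from 12.8 ± 2.83 to 27.9 ± 4.45 (1.11 ± 0.19, adjusted p = 0.000458). It was under 2-fold without NP-specific B cell replicate 2 (0.93, adjusted p = 0.00167) or PC replicate 2 (0.98, adjusted p = 0.00198), and at -0.05 with Ig genes kept.

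Against naive B cells, PCs had 4 of the 55 genes higher and 8 lower, with a median of -0.35 beside -0.47 for all genes, of which 11.4% were higher and 26.3% lower. Without PC replicate 3 these counts were 7 and 9. Fen1, the flap endonuclease of replication and repair, rose by 1.62 ± 0.16, Brca1, which serves homologous recombination, by 1.26 ± 0.23 and Hmces by 1.26 ± 0.26 (limma adjusted p = 7.89e-06, 0.000712 and 0.00156). Mlh3, a mismatch repair protein, fell by 1.60, Atm, the kinase that signals breaks, by 1.38 and Mdc1 also by 1.38 (adjusted p = 7.96e-05, 0.00494 and 0.000302). The split followed the scaling: under median-of-ratios scaling 14 genes were higher and 1 lower (18.2% and 14.1% of all genes), and with Ig genes kept none was higher and 35 were lower (4.47% and 64.5% of all genes). Atm and Mdc1 were then under 2-fold with median-of-ratios scaling (-0.88 and -0.89), and Fen1, Brca1 and Hmces with Ig genes kept (0.40, 0.22 and 0.05).

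**Figure D5:**
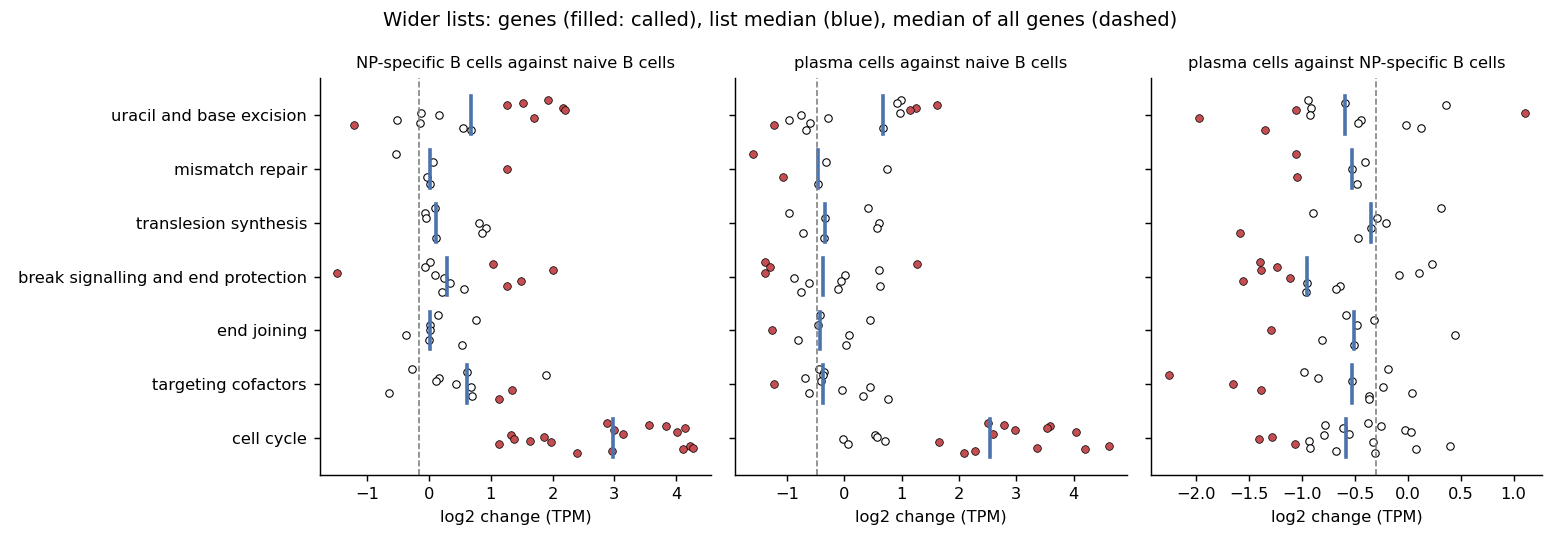
log2 change (TPM) of each gene of 6 repair lists and a cell cycle list in 3 comparisons. Filled points were called, blue bars are list medians and the dashed line is the median of all genes tested. All 18 cell cycle genes were called higher in NP-specific against naive B cells and 13 of 18 in plasma cells against naive B cells, and Lig3 is the filled point to the right of 0 in plasma cells against NP-specific B cells, at 1.11.

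Proliferation genes were higher in NP-specific B cells, and most of those listed also in PCs, than in naive B cells. All 18 genes of a cell cycle list were called higher in NP-specific than in naive B cells (median log2 change 2.98), against 8.13% of all genes. In PCs 13 of the 18 were called higher than in naive B cells (2.55), against 11.4%. That was 16 under median-of-ratios scaling (18.2% of genes) and 14 under quantile normalization (2063 of 12892 genes). With Ig genes kept 11 were higher and 2 lower (4.47% and 64.5% of genes), with a median of 1.35. From NP-specific B cells to PCs 3 were lower (-0.58), where 22.3% of all genes were. That count ranged from 2 (without NP-specific B cell replicate 1 or PC replicate 3) to 5 (without replicate 2 of either group) with single libraries left out, and was 1 under median-of-ratios scaling or quantile normalization and 17 with Ig genes kept. Their summed TPM was 331 to 378 over naive, 1776 to 2372 over NP-specific B cell and 1346 to 1736 over PC libraries. Mki67 had a mean TPM of 2.25, 49.7 and 66.4 and Top2a 16.0, 129 and 79.9 in the 3 groups. The replication genes Pcna (98.6, 240.2 and 165.5) and Mcm2 (32.6, 84.0 and 47.8) had, like Top2a, their highest mean in NP-specific B cells. Mki67 had its highest mean in PCs. Pcna was counted in the mismatch repair list and not among the 18 genes. The part of proliferation in the changes of the members was not tested.

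Genes with the most similar profile were sought among 8915 tested genes with a mean TPM of at least 5, by the root mean square distance of mean-centred log2 (TPM + 0.5) over the 9 libraries. Closest to Ung were Mcm7 (0.139) and Rfc3 (0.148), which serve DNA replication, where the median gene was at 0.762. Closest to Polh were Anp32e (0.156) and Mrps18c (0.166), and Tcea1 was among the 2 nearest to Msh6 (0.155). Apex1 was nearest to Tnfaip8 (0.186) and Cmtr1 (0.230), and Apex2 to Wbp1 (0.0952) and Sssca1 (0.105). Trp53bp1 was nearest to Arv1 (0.188) and Tnfrsf1b (0.191). Exo1 and Rif1 had no profile as close, with Arhgef39 (0.352) and Ube2m (0.366) nearest to Exo1 and Arih1 (0.243) and Gm4737 (0.308) nearest to Rif1. Among the members Ung and Polh were the closest pair (0.300) and Exo1 and Apex1 the farthest (1.76).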

How the data were processed

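RNA-seq libraries (SMART-Seq v4 cDNA with Nextera XT) were pseudoaligned with kallisto by the authors and summed per gene symbol. The submitters' processing notes name mm10. The deposited TPM values were length-corrected and scaled by the authors, with one table for all 30317 genes and one without Ig genes. From the same estimates the authors made the deposited log2 values with voom, and estimated counts per library were recovered from them. The deposited tables hold one column per library, and none pools replicates.

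TPM without Ig genes were fitted here with voom and limma (version 3.58.1, R 4.3.3) after the study's methods, scaled to the column sum, with 3 group means over all 9 libraries and without a block. The test covered the 12892 genes that reached a TPM of 1 in 3 or more libraries, with Benjamini-Hochberg adjustment over all of them. A gene was called with an adjusted p under 0.05 and a fold over 2. The offset of 0.5 TPM in log2 changes makes those of low genes too small. Shares were compared with exact permutation tests. Promoters were searched with Python 3.11.15.

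The 8 genes were given by name and are described in every comparison. Members and lists were chosen with earlier results of these data known. Of the wider list, up to 3 called genes per direction and comparison are named, those that changed most, and the 2 most similar profiles per member. Some list genes and 1 similar profile are not reported here, and the list counts leave them out. A floor of 3 counts and all spreads cover counting error or library spread only. Libraries are numbered 1 to 3 per group. The study sorted from 3 animals, but the labels do not tie numbers to animals, and p-values measure the spread between libraries. Which sequencer read which library is not given in the sources used here, so a batch could not be examined. Alternatives were other scalings, Ig genes kept, estimated counts, the authors' log2 values, other filters and offsets, only the libraries compared, a replicate block and each library left out.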

Additional observations from a re-analysis of the deposited data

How the results depend on the processing

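Between NP-specific and naive B cells no alternative reversed a member, and of 150 gene-level values 3 lost their call, all of Exo1. Between PCs and naive B cells 7 of 150 changed sign and 6 changed their side of the threshold, and 6 and 11 did for PCs against NP-specific B cells. Keeping Ig genes brought the calls over all genes to 8494 for PCs against naive B cells and 7775 for PCs against NP-specific B cells (4870 and 4150 as reported), and log2 changes turned to -0.60 for Ung, -0.87 for Apex2, -1.04 for Rif1 and -0.39 for Polh against naive B cells, and to -1.11 for Exo1 and -0.70 for Apex2 against NP-specific B cells. Rif1 in PCs against naive B cells was -0.00089 with an offset of 0.1 and no weights, and -0.49 to 0.42 with single libraries left out. Exo1 in PCs against NP-specific B cells was -0.38 to 0.53 with single libraries left out. Median-of-ratios scaling and quantile normalization each left 1 member called lower from NP-specific B cells to PCs. Under a filter at a mean TPM of 10, which removes Ung and Polh, 1 member was called between NP-specific and naive B cells, and all-gene calls were 1179, 2965 and 2640 because fewer genes were tested. Apex2 shares by estimated counts differed by -9.15, 42.5 and 51.6 percentage points, which follows from leaving out the length correction. Apart from these constructions, the cause was not tested.

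Scaling moved the split of higher to lower calls. It was 1048 to 1340, 1473 to 3397 and 1280 to 2870 as reported (NP-specific against naive B cells, PCs against naive B cells, PCs against NP-specific B cells), 1258 to 1022, 2349 to 1814 and 2023 to 1788 with median-of-ratios scaling, and 1157 to 976, 2063 to 2047 and 1795 to 1843 with quantile normalization.

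Labels share replicate numbers across groups, but of 9 same-number pairs of libraries none had deviations correlated above 0.1 (-0.0749 to 0.0675). The groups were taken in the order naive B cells, NP-specific B cells, PCs. In 4 of the 9 pairs the library of the earlier group correlated best with its own number in the later group. With a replicate block 3, 3 and 4 members were called, all-gene calls were 2453, 4898 and 4238, and Exo1 in PCs against NP-specific B cells was -0.052. Rif1 passed the lower threshold of 0.5 with the block, higher in NP-specific than in naive B cells (0.93, limma adjusted p = 0.0298) and lower from NP-specific B cells to PCs (-0.80, adjusted p = 0.0411). With single libraries left out 2 to 3, 2 to 3 and 3 to 5 members were called. The lowest depth was that of Ung, with 70.8 to 446 estimated reads, and groups of 3 cannot reach an exact permutation p under 0.1.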
